A study of Mus musculus with 10 samples.

Results

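The Spata (spermatogenesis associated) and Spag (sperm associated antigen) genes carry names given for expression in testis or presence in sperm, and many of the proteins are unrelated in sequence. The genes were taken by symbol: every array feature annotated with a single gene symbol made of Spata or Spag followed by a digit. This gave 43 of 25689 features and 41 of 19661 genes, 29 Spata and 12 Spag genes, and each gene is described by its feature with the highest mean level. Their levels were measured in whole testis from 5 wild-type mice (WT) and from 5 mice in which both copies of Crem are disrupted by an insertion (Crem-/-, here KO), with 1 mouse per Affymetrix Mouse Gene 1.0 ST array. All mice were untreated, 8 weeks old and sacrificed at 0 h, when the lights come on, and their mixed strain is given as 129Pas x C57Bl/J in the sample descriptions, which leave out the substrain letters. The KO mice carry the disrupted gene in every cell, germ cells and somatic cells of the testis included, and each array reads all of them together. The study asked how the testis transcriptome changes without Crem, and here the question is which Spata and Spag genes fell, rose or did not change, and how that relates to the stage of sperm development at which each gene is known to act.

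Sperm arise from spermatogonia that divide by mitosis, become spermatocytes that recombine their chromosomes and divide by meiosis, and then form haploid spermatids. Round spermatids build the acrosome and begin the tail, and elongating spermatids shape the head, pack the chromatin and wrap mitochondria around the midpiece. CREM, which binds the cAMP responsive element (CRE) and switches on transcription, is most active in round spermatids, and Crem mutant males are known to stop at that stage. Genes named Spata or Spag are found along this whole path, from the spindle of dividing cells to the tail of the finished sperm.

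The median log2 level of an array was 7.11 to 7.15, and no pair of arrays held identical values. The disrupted gene was checked first. Crem read 10.89, 11.04, 10.96, 10.93 and 10.94 in the WT arrays and 9.29, 9.29, 9.41, 9.01 and 9.18 in the KO arrays, which on the log2 scale is a difference of −1.71 ± 0.07 (SE; limma adjusted p = 3e-10). All KO arrays lay below all WT arrays, with 30.5% of the WT level left, at percentile 80.8 among all features. The labels give the genotype and not a level of Crem RNA, so the lower level does not by itself prove the genotype. The labels give 4 batches without saying which step they mark. KO replicates 1, 4 and 5 and WT replicate 5 were in batch 4, WT replicates 1, 2 and 3 and KO replicate 3 in batch 2, KO replicate 2 alone in batch 1 and WT replicate 4 alone in batch 3.

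Of the 41 genes, 18 (43.9%) were lower in KO, 11 (26.8%) were higher and 12 (29.3%) were not called by limma (lmFit and eBayes, two-sided, Benjamini-Hochberg adjusted p under 0.05 over all features). Over all 19661 genes 13.2% were lower and 31.1% higher. The falls were large, with 14 genes (34.1%) lower by at least 1 on the log2 scale against 4.36% of all genes, 11 (26.8%) lower by at least 2 against 2.33%, and 6 lower by at least 3 against 1.39%. The rises were small, between 0.19 and 0.69, and no Spata or Spag gene rose by 1 or more on its brighter feature, which 1.37% of all genes did. WT and KO arrays did not overlap in 30 of the 41 genes (73.2%), against 32.7% of all genes. The median log2 change was −0.12 over the 41 genes and 0.07 over all genes. Spata genes held 17 of the 18 falls, with a median of −0.68, while 6 of the 12 Spag genes rose and 1 fell, with a median of 0.23. All 18 falls and 11 rises had the same direction in batch 2 alone and in batch 4 alone. Only these batches hold both genotypes, so the fit with batch as a block takes its difference from their arrays. Its direction is therefore no further check, and KO replicate 2 and WT replicate 4 add nothing to its estimate. With the block all 18 falls but 8 of the 11 rises were called, without Spata1, Spag6 and Spag8. Within batch 2, which holds 1 KO array, 16 genes were called lower and 5 higher, and within batch 4, which holds 1 WT array, 16 were lower and 2 higher, Spata5 and Spata45. With each array centred on 8 housekeeping genes, of which 2 were called lower and 3 higher, the median change of all features moved from 0.05 to −0.06. Then the 18 falls were still called but 8 of the 11 rises were. Without B2m, the housekeeping gene with the largest rise (0.81), that median was 0.04, and all 18 falls and 10 of the 11 rises were called. The count of small rises thus depends on the block and on the scaling, in part through B2m.

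**Figure D1:**
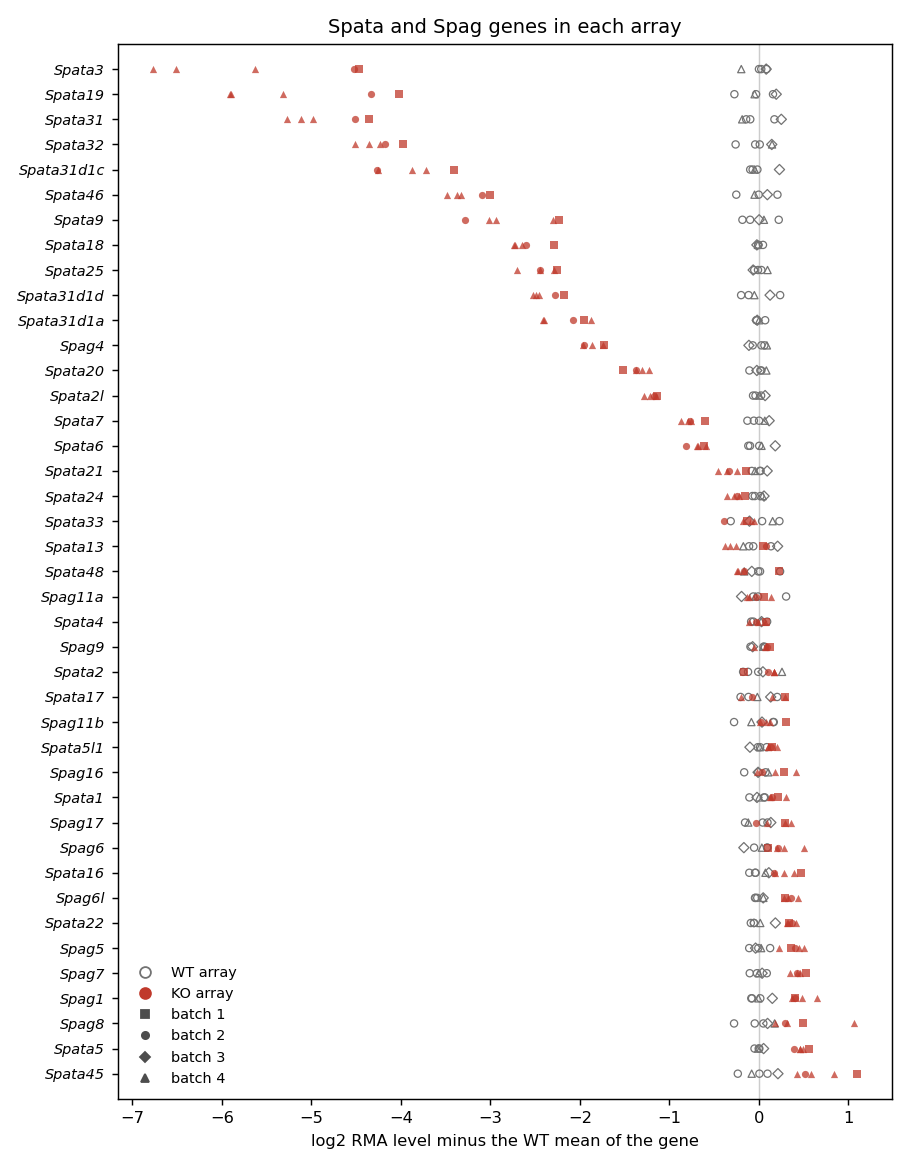
Log2 RMA level of each of the 41 Spata and Spag genes in every array, minus the WT mean of that gene (horizontal axis), ordered from the largest fall to the largest rise; open symbols are the 5 WT arrays, filled symbols the 5 KO arrays, and shapes mark the batch. The KO arrays of the top 14 genes lie more than 1 below the WT mean, from Spata3 at −5.58 to Spata2l at −1.19 on average, whereas the rises at the bottom end at 0.69 for Spata45.

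Falls and rises were divided by the stage at which a gene is known to act. Genes were placed in classes from general knowledge, but with earlier results of these data known, so the classes are not independent of the outcome. The 9 genes whose stage was not certain were left unassigned. Of 14 genes known mainly from haploid spermatids 12 fell, 11 of them by at least 1, and 2 rose, with a median of −2.49. Of 6 genes of the axoneme and its assembly, which are transcribed from spermatocytes onward, none fell, 3 rose and 3 were not called, with a median of 0.23. The meiotic gene Spata22 and the spindle gene Spag5 rose. Of 8 genes used in many tissues 2 fell, 2 rose and 4 were not called, with a median of 0.08, and neither epididymal gene was called. Against these counts stand 13.2% of all genes lower and 31.1% higher. With the housekeeping centring the haploid median was −2.61, the axoneme median 0.11 with 2 genes higher, and the median of the widely used genes turned to −0.041. With B2m left out of that centring the axoneme gene Spag6 was called higher as well (limma adjusted p = 0.0244). Levels of whole testis cannot tell fewer cells of a type from less RNA per cell.

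**Figure D2:**
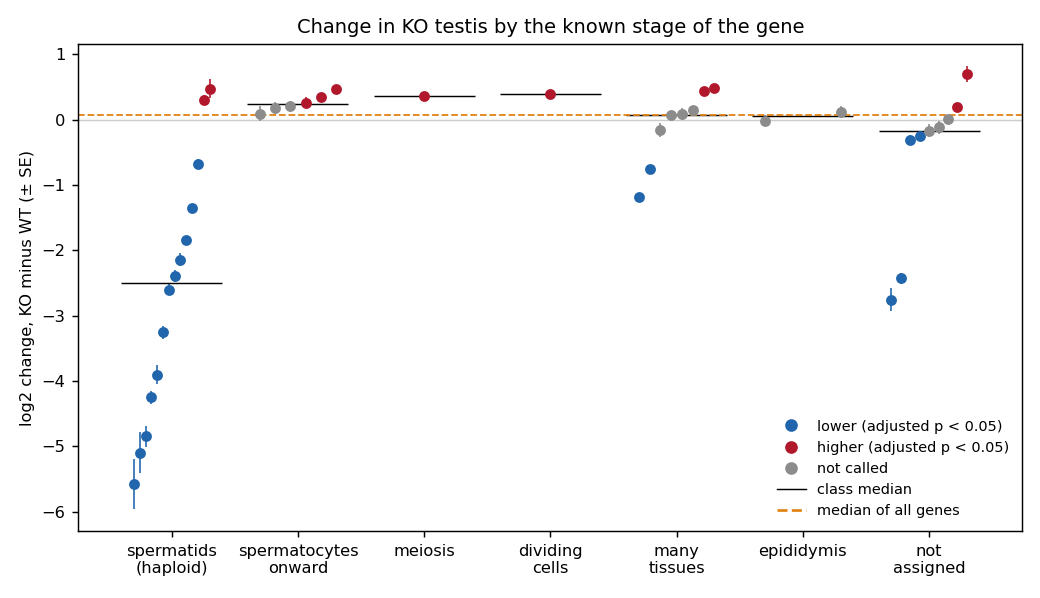
Log2 change, KO minus WT (vertical axis), with the standard error of the limma fit for each Spata and Spag gene, grouped by the stage or tissue at which the gene is known to act; colours give the call, black lines the class medians and the dashed line the median of all genes, 0.07. Haploid genes reach down to −5.58 around a median of −2.49, and the genes transcribed from spermatocytes onward lie between 0.092 and 0.46.

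Markers of cell types were listed with earlier results of these data known. Of 10 markers of elongating spermatids all were lower in KO, with a median of −5.05. That median was −3.45 within batch 2 and −5.77 within batch 4, so the size of the fall differed between arrays. Their summed level on the log2 scale was 16.32 to 16.59 in WT and 12.52 to 13.61 in KO. Most of these 10 are genes that the study had already reported as lower in these same arrays, so this outcome was known beforehand. The study also lists some of them as bound by CREM. Of 7 markers of round spermatids 5 were lower and 1 higher, with sums of 14.40 to 14.52 and 13.55 to 13.68. Some of these too had been reported as lower by the study, and it lists at least 1 as bound by CREM. None of 7 spermatocyte markers was lower and 4 were higher, with sums of 12.97 to 13.12 in WT and 13.22 to 13.29 in KO. Among 6 markers of spermatogonia 2 were higher and 1 lower (10.07 to 10.32 and 10.31 to 10.47). All 6 macrophage markers were higher (10.22 to 10.39 and 10.76 to 11.43). Among the other somatic cells 4 of 8 Sertoli (12.79 to 12.98 and 13.09 to 13.37), 3 of 4 Leydig (12.63 to 12.96 and 13.03 to 13.77) and 1 of 5 peritubular markers (11.10 to 11.32 and 11.19 to 11.66) were higher. The background for these counts is 31.1% of all genes higher and 13.2% lower, and the peritubular share lies below it. With the housekeeping centring the elongating and round spermatid markers kept their falls and the macrophage markers their rises, while 1 spermatocyte, 1 Sertoli, 2 Leydig and no peritubular markers were higher. With B2m left out of that centring 3 spermatocyte, 4 Sertoli, 3 Leydig and 1 peritubular markers were higher. The scale has no zero, so no marker can be called absent. The part of these cell types in the changes of the Spata and Spag genes was not tested.

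The starts of the genes were searched for the CRE, the letters TGACGTCA, and for its shorter form, TGACG or CGTCA, in RefSeq windows of 300 bases, 250 before and 50 after each annotated start (GRCm38.p6). Both strands are covered, since the CRE reads alike on both and the short forms are each other's complement, and each CRE also holds both short forms. Windows were found for 36 of the 41 genes, and Spag1, Spag11a, Spag11b, Spata24 and Spata2l had none. The CRE was present in 3 of 44 windows (6.82%), against 588 of 32851 windows of all genes (1.79%), and a short form in 15 (34.1%) against 20.8%. Of the 14 windows of genes that fell by at least 1, 1 held the CRE and 3 (21.4%) a short form. Of the 12 windows of genes that rose, 1 held the CRE and 5 (41.7%) a short form, and of the 14 windows of uncalled genes none held the CRE and 5 (35.7%) a short form. A match of these letters is a description of the sequence and says nothing of binding.

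The 3 genes with a CRE moved differently, since Spag4 changed by −1.85, Spata7 by −0.76 and Spag6l by 0.34. The CRE begins 37 bases before the annotated start in Spag4, 9 in Spag6l and 7 in Spata7. The stretches are shown for these 3 genes, for Spata18 and Spata32, which fell and hold a short form 56 and 68 bases before the start, and for Spata3 and Spata19, the largest falls, whose windows hold neither (1 of 2 windows of Spata19 is shown). Each runs over 80 bases, 5′ to 3′ on the strand of the gene, up to the last base before the start, or, for Spata7, up to the first transcribed base, and capitals mark each short form or CRE that lies wholly within it. Spag4 has a further TGACG that begins 2 bases before the start and runs past the end of the printed stretch.
Spag4 (chr2:156065133-156065212, plus strand, GRCm38.p6): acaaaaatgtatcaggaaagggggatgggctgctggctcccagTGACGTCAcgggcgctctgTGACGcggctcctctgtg
Spag6l (chr16:16829364-16829443, minus strand, GRCm38.p6): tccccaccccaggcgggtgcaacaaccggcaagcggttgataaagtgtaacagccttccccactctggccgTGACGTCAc
Spata7 (chr12:98628063-98628142, plus strand, GRCm38.p6): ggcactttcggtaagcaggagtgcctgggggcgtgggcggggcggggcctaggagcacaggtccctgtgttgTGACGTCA
Spata18 (chr5:73651300-73651379, plus strand, GRCm38.p6): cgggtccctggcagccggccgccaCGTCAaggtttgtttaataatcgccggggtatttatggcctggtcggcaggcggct
Spata32 (chr11:103218433-103218512, minus strand, GRCm38.p6): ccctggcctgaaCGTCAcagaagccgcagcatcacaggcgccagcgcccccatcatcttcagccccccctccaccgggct
Spata3 (chr1:86021865-86021944, plus strand, GRCm38.p6): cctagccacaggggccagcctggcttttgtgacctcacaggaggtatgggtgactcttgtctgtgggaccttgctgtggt
Spata19 (chr9:27396727-27396806, plus strand, GRCm38.p6): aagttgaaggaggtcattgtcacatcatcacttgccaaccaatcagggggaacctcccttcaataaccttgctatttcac

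The largest falls were in genes of spermatids. Spata3, a gene of late spermatids, read 11.61, 11.58, 11.67, 11.66 and 11.38 in the WT arrays and 5.95, 7.11, 7.05, 5.07 and 4.81 in the KO arrays, and fell by 5.58 ± 0.38 on the log2 scale (SE; limma adjusted p = 4.7e-08). The mean log2 change leaves 2.09% of the WT level, and single KO arrays kept 0.915% to 4.50%. The values give no background level, so some of the KO signal may be background. The KO arrays were spread more widely than the WT arrays, with an SD of 1.08 against 0.12 (n = 5 each). Spata19, a protein of sperm mitochondria, read 10.73, 10.92, 10.49, 10.96 and 10.71 in WT and 5.45, 6.74, 6.43, 4.85 and 4.86 in KO, a change of −5.10 ± 0.32 (SE). In both genes KO replicates 2 and 3 were the highest KO arrays, yet all KO arrays lay far below the lowest WT array. Within batch 2 Spata3 changed by −4.56 and Spata19 by −4.29, and within batch 4 by −6.11 and −5.66.

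Spata32, a protein of the acrosome region, read 9.21, 9.26, 8.99, 9.39 and 9.40 in WT and 5.02, 5.27, 5.07, 4.89 and 4.74 in KO, a change of −4.25 ± 0.10 (SE; limma adjusted p = 2.62e-12). Its arrays agreed closely within each genotype, and it had the smallest adjusted p of the 41 genes. Spata46, a nuclear envelope protein needed to shape the sperm head, read 9.11, 9.32, 8.86, 9.20 and 9.06 in WT and 5.78, 6.10, 6.02, 5.62 and 5.74 in KO (−3.26 ± 0.10, SE). Every KO array of either gene was below every WT array.

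The Spata31 family encodes long proteins of spermatids, and its 4 measured genes all fell, with a median of −3.15. Spata31 itself read 10.03, 10.34, 10.07, 10.42 and 9.98 in WT and 5.19, 5.81, 5.66, 4.90 and 5.05 in KO (−4.85 ± 0.16, SE; limma adjusted p = 2.49e-11). Spata31d1c read 10.15, 10.20, 10.12, 10.45 and 10.17 in WT and 6.50, 6.82, 5.95, 5.96 and 6.34 in KO (−3.91 ± 0.14). These were the larger falls of the family. Spata31d1d read 8.33, 8.68, 8.25, 8.57 and 8.39 in WT and 5.98, 6.26, 6.16, 5.91 and 5.95 in KO (−2.39 ± 0.09), and Spata31d1a read 8.85, 8.95, 8.85, 8.86 and 8.88 in WT and 6.47, 6.92, 6.80, 7.00 and 6.46 in KO (−2.14 ± 0.10). The groups did not overlap in any of the 4 genes. The d1 genes are close relatives that can share probe signal, so the size of each fall is uncertain.

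The other genes of the haploid class that fell changed by −2.60 to −0.68. Spata18, also called Mieap and linked to the quality control of mitochondria, read 12.76, 12.77, 12.82, 12.75 and 12.76 in WT and 10.03, 10.48, 10.17, 10.12 and 10.05 in KO, a change of −2.60 ± 0.08 (SE; limma adjusted p = 1.33e-11). The WT arrays lay close together, with an SD of 0.03 (n = 5). Spata20, a thioredoxin-like protein of spermatids, read 12.44, 12.45, 12.31, 12.40 and 12.50 in WT and 11.05, 10.90, 11.05, 11.19 and 11.12 in KO (−1.36 ± 0.06). Spata6, which is needed to build the connecting piece between head and tail, was the haploid gene with the smallest fall, −0.68 ± 0.07, from 12.51 ± 0.12 to 11.83 ± 0.09 (SD, n = 5 each). No WT array overlapped with a KO array in these 3 genes.

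Other genes of the same structures did not all follow them. Of 10 measured genes of sperm mitochondria on a list of 12, 4 fell and 4 rose (5 and 3 with the housekeeping centring, 4 and 4 without B2m in it). For this and all later lists the background is 13.2% of all genes lower and 31.1% higher. Tbc1d21 (−4.62 ± 0.22, SE), needed to assemble the midpiece sheath, and the peroxiredoxin gene Prdx4 (−2.24 ± 0.10) had the largest falls, while the carrier gene Slc25a31 (0.43 ± 0.05) and Bnip3 (0.41 ± 0.11) had the largest rises. Of 12 measured genes of the head-tail junction on a list of 13, 9 fell and 2 rose, with a median of −0.98. Sun5 (−5.08 ± 0.19) and Oaz3 (−5.03 ± 0.60) had the largest falls, and Ccdc42 (0.30 ± 0.11) and Tsga10 (0.23 ± 0.07) rose. With the housekeeping centring the 9 falls were still called, and no gene of the junction was higher. Sun5 is also on the next list.

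Spag4, the gene with the CRE and 2 further short forms at its start, encodes a SUN protein of the spermatid nuclear envelope, where such proteins join the nucleus to the microtubules of the manchette. It read 10.71, 10.80, 10.84, 10.66 and 10.86 in WT and 8.91, 9.04, 8.82, 9.03 and 8.81 in KO, a change of −1.85 ± 0.07 (SE; limma adjusted p = 6.03e-11), and was the 1 Spag gene that fell. Of 10 genes of the SUN and nesprin bridge and of the nuclear lamina 4 fell and 2 rose. The falls included the spermatid SUN gene Sun5 and the lamin gene Lmnb2 (−2.22 ± 0.08), and the rises were in the widely expressed SUN gene Sun1 (0.65 ± 0.06) and the nesprin gene Syne1 (0.55 ± 0.08). The median of the list was 0.08, and −0.035 with the housekeeping centring (0.06 without B2m in it).

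A pair of genes placed in the haploid class rose. Spata16, a Golgi protein carried to the forming acrosome, whose loss is known to give round-headed sperm, read 11.82, 11.81, 11.75, 11.97 and 11.93 in WT and 12.25, 12.33, 12.02, 12.04 and 12.14 in KO, a change of 0.30 ± 0.07 (SE; limma adjusted p = 0.0049). Of 12 other genes of acrosome formation 8 were higher and 1 lower, with a median of 0.22. With the housekeeping centring 1 was higher and 2 lower, and without B2m in it 7 were higher and 2 lower. Golga3 (0.47 ± 0.07) and Zpbp2 (0.33 ± 0.07) rose most, and Spaca1 (−4.29 ± 0.17) was the fall. The rise of Spata16 was 0.18 with the housekeeping centring and then not called (limma adjusted p = 0.142). With B2m left out of that centring it was 0.28 and called (limma adjusted p = 0.0238). It was 0.23 within batch 2 and 0.21 within batch 4.

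Spag8, which is known to bind the CREM coactivator ACT encoded by Fhl5, read 8.11, 8.21, 7.88, 8.25 and 8.33 in WT and 8.47, 8.65, 8.45, 9.22 and 8.34 in KO, a change of 0.47 ± 0.14 (SE; limma adjusted p = 0.019). KO replicate 4 was the highest array, and the lowest KO array, replicate 5, was close to the highest WT array. The call ended with batch as a block (0.36, limma adjusted p = 0.189) and without WT replicate 3 (0.40, limma adjusted p = 0.0512). Fhl5, in contrast, changed by −4.47 ± 0.22, and Kif17, the kinesin that carries ACT, by −1.05 ± 0.06. With Crem, 3 of these 6 partner genes fell, while Fhl2 (0.33 ± 0.12) and Fhl3 (0.29 ± 0.10) rose, though neither rise was called with the housekeeping centring. With B2m left out of that centring 1 of the 6 genes was higher.

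No axoneme gene was called lower. Spag6, Spag6l, Spag16, Spag17 and Spata17 belong to the central pair of microtubules that steers the beat of cilia and flagella. Spag6l, whose start holds the CRE printed above, was higher by 0.34 ± 0.05 (SE; limma adjusted p = 0.000227), from 12.20 ± 0.05 to 12.54 ± 0.06 (SD, n = 5 each), and its close copy Spag6 by 0.26 ± 0.08 (limma adjusted p = 0.0195). These paralogs can share probe signal. The call of Spag6 ended with batch as a block (0.23, limma adjusted p = 0.0847) and without WT replicate 4 (0.22, limma adjusted p = 0.0503). It also ended with the housekeeping centring (0.14, limma adjusted p = 0.204). With B2m left out of that centring Spag6 was at 0.24 and called (limma adjusted p = 0.0244).

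Spag17 read 11.33, 11.39, 11.14, 11.42 and 11.17 in WT and 11.65, 11.59, 11.26, 11.39 and 11.59 in KO, a difference of 0.20 ± 0.09 (SE) that did not pass the test (limma adjusted p = 0.0799), but did without KO replicate 3 (limma adjusted p = 0.0241). Spag16 read 10.41, 10.65, 10.57, 10.57 and 10.68 in WT and 10.99, 10.86, 10.61, 10.76 and 10.55 in KO (0.18 ± 0.09; limma adjusted p = 0.126), and Spata17 stood at 0.092 ± 0.11 (limma adjusted p = 0.548). The groups overlapped in these 3 genes. Of 16 other measured genes of the central apparatus and the radial spokes, of 18 listed, 9 rose and 1 fell, with a median of 0.22 (4 and 1 with the housekeeping centring, 7 and 1 without B2m in it). The largest rises were Cfap47 (1.07 ± 0.10) and Iqub (0.81 ± 0.07), and the fall was Ak8 (−0.31 ± 0.07).

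Spag1, a cytoplasmic factor that helps to assemble dynein arms before they enter the axoneme, read 10.30, 10.21, 10.20, 10.44 and 10.28 in WT and 10.77, 10.69, 10.69, 10.94 and 10.66 in KO, a rise of 0.46 ± 0.07 (SE; limma adjusted p = 0.000127). All KO arrays were above all WT arrays. Of 10 measured dynein assembly genes, of 12 listed, 8 rose and none fell, and the median was 0.30 (3 rose with the housekeeping centring, 7 without B2m in it). Lrrc6 (0.69 ± 0.06) and Dnaaf5 (0.40 ± 0.10) had the largest rises.

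Spata22 and Spag5, genes of meiosis and of cell division, rose. Spata22, which works with MEIOB on single-stranded DNA during meiotic recombination, rose from 9.19 ± 0.11 to 9.55 ± 0.04 (SD, n = 5 each), by 0.35 ± 0.06 (SE; limma adjusted p = 0.00052). Of 12 measured recombination genes, of 15 listed, 6 rose and none fell, with a median of 0.22 (3 rose with the housekeeping centring, 6 without B2m in it), and Meiob (0.82 ± 0.13) and Msh4 (0.61 ± 0.12) rose most. Spag5, or astrin, which holds the mitotic spindle together, read 10.41, 10.27, 10.17, 10.24 and 10.31 in WT and 10.73, 10.64, 10.68, 10.79 and 10.51 in KO, a rise of 0.39 ± 0.07 (limma adjusted p = 0.000409). Of 9 measured spindle genes, of 10 listed, 6 rose and none fell, led by Kif11 (0.60 ± 0.07) and Cdk1 (0.40 ± 0.07), with a median of 0.33 (5 rose and 1 fell with the housekeeping centring, 6 and none without B2m in it). The background for these counts is the 31.1% of all genes that rose.

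Of the 8 genes used in many tissues 2 fell and 2 rose, against 13.2% and 31.1% of all genes. Spata2l, a relative of Spata2, read 8.06, 8.15, 8.09, 8.20 and 8.14 in WT and 6.85, 6.99, 6.96, 6.92 and 6.98 in KO, a change of −1.19 ± 0.05 (SE; limma adjusted p = 5.82e-10), and was the 1 gene outside the haploid and unassigned classes that fell by more than 1. Spata7, a protein of the connecting cilium of photoreceptors whose gene also has the CRE at its start, fell by 0.76 ± 0.07, from 11.35 ± 0.10 to 10.59 ± 0.10 (SD, n = 5 each). No KO array of either gene reached the WT range.

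Spata5, an AAA ATPase of ribosome maturation, read 10.62, 10.57, 10.63, 10.68 and 10.62 in WT and 11.12, 11.18, 11.02, 11.09 and 11.09 in KO, a rise of 0.48 ± 0.05 (SE; limma adjusted p = 7.64e-06). Spag7 read 9.54, 9.43, 9.35, 9.49 and 9.45 in WT and 9.91, 9.97, 9.87, 9.87 and 9.79 in KO, a rise of 0.43 ± 0.06 (limma adjusted p = 4.34e-05). Both stayed called with the housekeeping centring, at 0.36 and 0.32, while Spag7 was at 0.43 within batch 2 and 0.41 within batch 4 and not called there. Spata5l1, the partner ATPase of Spata5, was at 0.14 ± 0.05, and although its groups did not overlap it was not called (limma adjusted p = 0.0583), except after a further quantile normalisation (0.0135), with arrays centred on their median (0.0314) and without WT replicate 3 (0.0429; all limma adjusted p).

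Spata2, which links a deubiquitinase to the tumour necrosis factor receptor complex, stood at 0.09 ± 0.09 (SE), the exchange factor gene Spata13 at −0.17 ± 0.11 and the JNK scaffold gene Spag9 at 0.062 ± 0.06. None of these 3 was called, but Spata13 was lower, at −0.32, without KO replicates 2 and 3 (limma adjusted p = 0.0189). Among 6 other JNK kinases and scaffolds 3 rose and 1 fell, with Mapk8ip2 at 0.63 ± 0.08, Mapk10 at 0.38 ± 0.13 and Mapk8 at −0.21 ± 0.05 (1 rose and 1 fell with the housekeeping centring, 3 and 1 without B2m in it).

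Spag11a and Spag11b, defensin-like genes of the epididymis that lie in a cluster of close copies, changed by −0.016 ± 0.09 and 0.11 ± 0.09 (SE) and were not called. Of 8 measured epididymal genes, of 9 listed, 3 fell and none rose, and their summed level, on the log2 scale, was 9.14 to 9.36 in the WT and 8.79 to 8.93 in the KO arrays. Defb30 (−0.85 ± 0.08) and Defb15 (−0.42 ± 0.11) had the largest falls. These genes were mostly dim, with a median WT percentile of 23.7 among all features for the list, 33.0 for Spag11a and 12.2 for Spag11b. Part of such a signal may be background, so the absence of a call does not show an unchanged level.

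The 9 genes without an assigned stage held both directions. Spata9 read 9.47, 9.88, 9.56, 9.66 and 9.71 in WT and 7.35, 7.42, 6.37, 6.63 and 6.71 in KO, a change of −2.76 ± 0.18 (SE; limma adjusted p = 2.33e-08). Spata25 read 8.87, 8.83, 8.91, 8.82 and 8.98 in WT and 6.18, 6.62, 6.43, 6.59 and 6.43 in KO (−2.43 ± 0.08). The haploid genes that fell spanned −5.58 to −0.68, a range too wide to place these genes in a class by their falls. Smaller falls were called in Spata21 (−0.31 ± 0.07) and Spata24 (−0.25 ± 0.06). Within batch 2 they were at −0.32 and −0.21 and within batch 4 at −0.31 and −0.33, and neither was called in these fits, which have 1 array in one genotype.

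Spata45 had the largest rise of the 41 genes. It read 9.08, 9.17, 8.84, 9.29 and 8.99 in WT and 9.50, 10.17, 9.59, 9.92 and 9.65 in KO (0.69 ± 0.12, SE; limma adjusted p = 0.000487), with KO replicate 2 highest. Spata1 rose by 0.19 ± 0.06 (limma adjusted p = 0.0218). It lost that call with the housekeeping centring (limma adjusted p = 0.466) and when B2m was left out of that centring (limma adjusted p = 0.0642). The call was also lost with batch as a block (0.16, limma adjusted p = 0.155) and without WT replicate 1 (limma adjusted p = 0.0603). The same held without KO replicate 4 (limma adjusted p = 0.0563) and without KO replicates 2 and 3 (limma adjusted p = 0.0531). Within batch 2 Spata1 was at 0.14 and within batch 4 at 0.19.

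Spata4, a testis gene, had the difference nearest to 0. It read 12.29, 12.31, 12.47, 12.41 and 12.40 in WT and 12.26, 12.46, 12.35, 12.45 and 12.37 in KO, a difference of 0.001 ± 0.06 (SE; limma adjusted p = 0.992). Spata33, which anchors calcineurin to sperm mitochondria, stood at −0.17 ± 0.10 (limma adjusted p = 0.209) and was called lower without WT replicate 1, at −0.25 (limma adjusted p = 0.0435).

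Spata48 and Spata20 were each measured by 2 features. The brighter Spata48 feature read 11.22, 10.98, 11.00, 10.90 and 10.82 in WT and 10.81, 11.21, 10.82, 10.74 and 10.75 in KO and was not called (−0.12 ± 0.10, SE; limma adjusted p = 0.383). Its dimmer feature read 8.44, 8.97, 8.31, 8.82 and 8.71 in WT and 9.56, 10.09, 9.68, 9.76 and 9.40 in KO and rose by 1.05 ± 0.14 (limma adjusted p = 4.22e-05), with no overlap of the groups. The features of this gene thus disagree, and the mean of both gave 0.47 (limma adjusted p = 0.0019). For Spata20 both features fell, the brighter at −1.36 and the dimmer at −0.67 ± 0.20 (SE; limma adjusted p = 0.0143). The dimmer one read 9.04, 8.75, 8.60, 8.76 and 7.88 in WT and 7.82, 8.48, 7.96, 7.70 and 7.71 in KO, where the groups overlapped, and it was not called within batch 4.

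**Figure D3:**
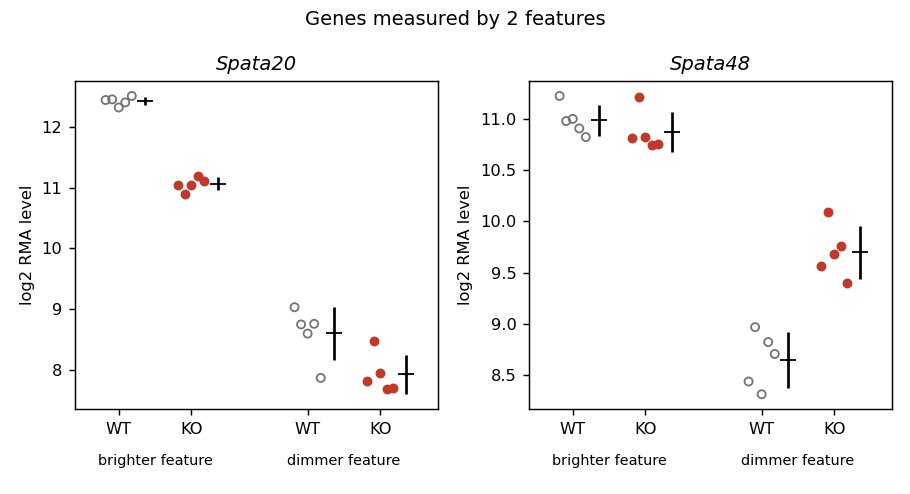
Log2 RMA levels (vertical axes) of the brighter and the dimmer feature of Spata20 and Spata48 in the 5 WT (open) and 5 KO (filled) arrays, with the mean and SD beside each group. Both Spata20 features are lower in KO, at −1.36 and −0.67, whereas the Spata48 features differ, one at −0.12 and the other at 1.05.

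The KO arrays differed in how much signal was left, and part of that signal may be background. Across the 14 large falls, those of at least 1, the median signal left was 20.7% of the WT mean in KO replicate 2 and between 14.1% and 15.2% in the other KO arrays. KO replicate 2 kept the most signal in 12 of the 14 genes and KO replicate 4 in the other 2, Spata31d1a and Spata20. For the 6 genes that fell by at least 3, the share left was at most 6.25% in the median of any KO array, and differences between arrays at these low levels were not separated from background. Spata3 ranged from 0.915% in KO replicate 5 to 4.50% in KO replicate 2. In Spata20 KO replicate 2 was the lowest KO array, with 34.9% left. KO replicate 2 is the 1 array of batch 1, so its animal and its batch cannot be told apart. Without KO replicates 2 and 3 the 18 falls were still called, with Spata3 at −6.30 and Spata19 at −5.71.

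**Figure D4:**
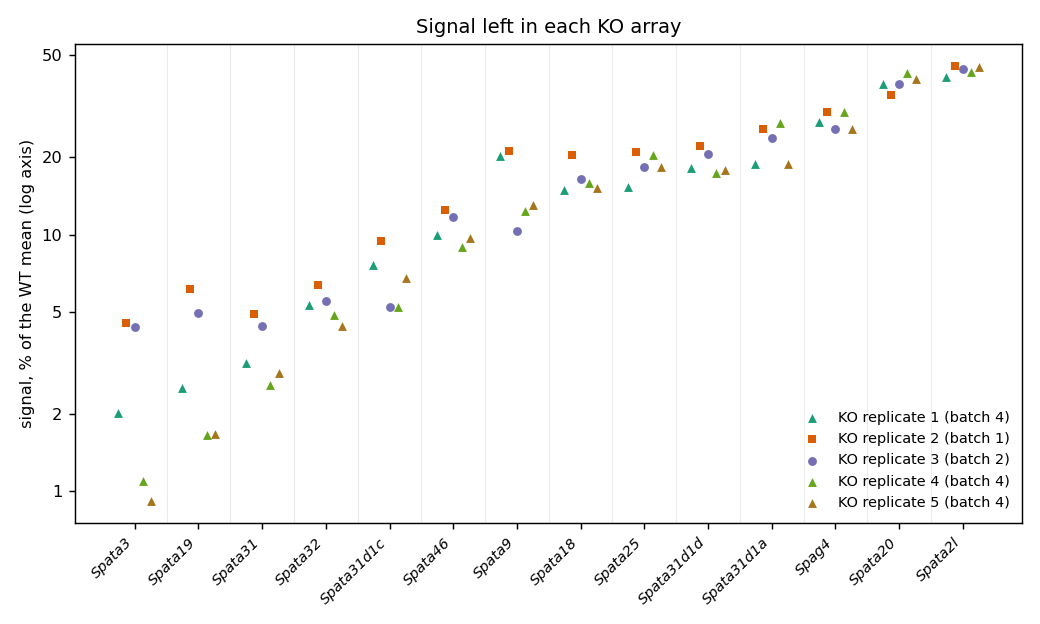
Signal left in each KO array, in percent of the mean WT level after taking values off the log2 scale (vertical axis, logarithmic), for the 14 Spata and Spag genes that fell by at least 1 on the log2 scale; shapes mark the batch. KO replicate 2 is the highest array in 12 of the 14 genes, and the percentages, which may include background, run from 0.915% to 4.50% in Spata3.

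Genes that fell, rose or were not called were mostly bright in WT, with median percentiles among all features of 88.1 for the 14 large falls, 91.4 for the 11 rises and 85.1 for the 12 uncalled genes. WT means of the 14 genes lay between percentiles 66.7 and 99.7, and their KO means between percentiles 12.0 and 95.9, with a median of 34.0. The 12 uncalled genes spanned percentiles 12.2 to 99.4 in WT. A percentile gives a feature's brightness, which also depends on its probes.

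**Figure D5:**
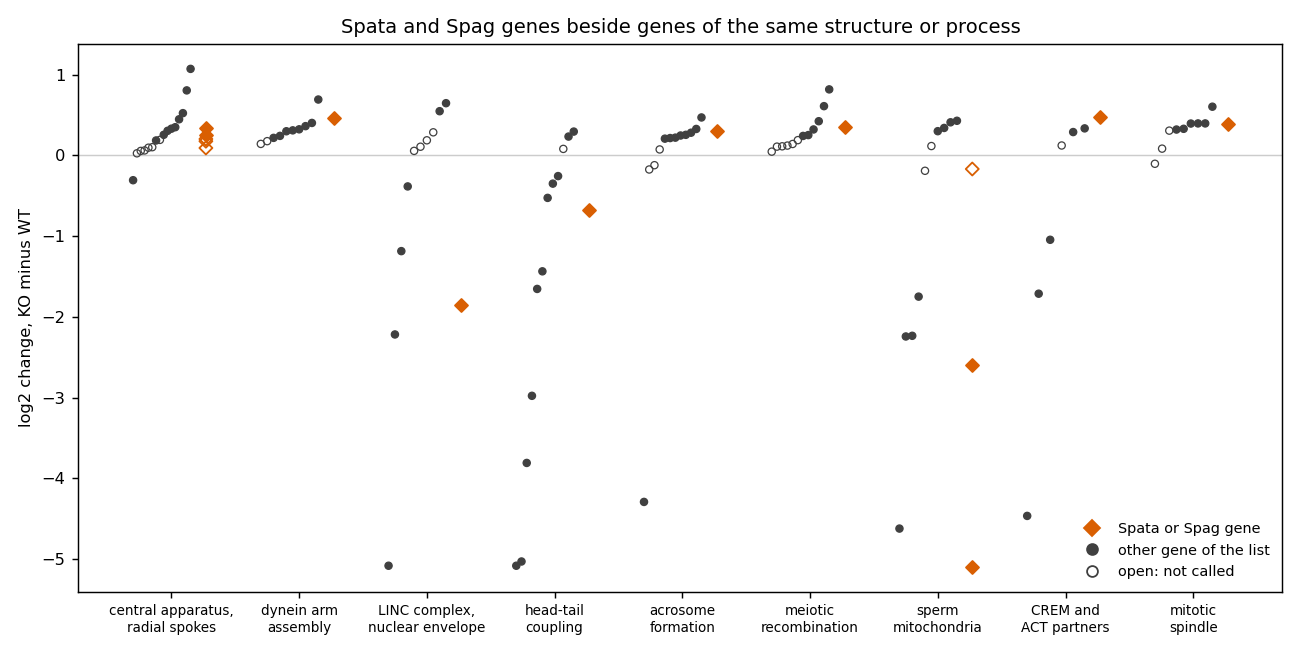
Log2 change, KO minus WT (vertical axis), of Spata and Spag genes (diamonds) beside other genes of the same structure or process (circles); filled symbols passed the test and open ones did not. Spata and Spag genes of the axoneme, dynein assembly, acrosome formation, recombination and the spindle lie between 0.092 and 0.46 and Spag8 at 0.47, Spag4, Spata6, Spata18 and Spata19 lie between −0.68 and −5.10, and Spata33, not called, at −0.17.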

How the data were processed

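Whole testis RNA of 5 WT and 5 KO mice was measured on Affymetrix Mouse Gene 1.0 ST arrays. RMA, run by the authors in XPS, a Bioconductor package, made the values (core probe sets, probes grouped per transcript, background from antigenomic probes). The deposited values are log2 levels, and quantile normalisation makes them relative within each array. The package version is not given in the sources used here. The table has 35557 rows, of which 9868 hold no value and 25689 were used. Features were named through the platform annotation in GEO, updated through RefSeq (GRCm38.p6), which changed no Spata or Spag symbol.

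The genotypes were compared over all features by limma 3.58.1 under R 4.3.3 (lmFit, eBayes, no covariate, Benjamini-Hochberg), after a test on simulated data. The number of arrays limits the precision, with a median standard error of 0.0765. Replicates were numbered in order of deposition, and the numbers pair no samples. Alternatives were another quantile normalisation, other centrings, batch as a block or alone, weighted arrays, a robust eBayes with an intensity trend, no features among the lowest 25%, the mean of a gene's features, and leaving out arrays. The genes, stage classes and lists were chosen with earlier results of these data known. Every Spata and Spag gene could be named. Values in every array were given for called changes of at least 1, the 6 largest rises and the 4 brightest uncalled genes. Spata16 and the dimmer Spata20 feature were added to these. From each list the 2 largest called falls and rises could be named, and Kif17 was added to Crem and Fhl5. Of the cell type markers only counts, medians and sums are given. Housekeeping centring used 8 measured of 14 listed genes.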

Additional observations from a re-analysis of the deposited data

Results flagged for a closer look

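In each genotype the highest and the lowest array of every Spata and Spag gene was set against the other 4. Of 82 groups 4 had an array that stood apart by Dixon's criterion, and chance alone gives about 1 in 20. Spata31d1c read 10.45 in WT replicate 4 against 10.12 to 10.20 in the other WT arrays. Spata18 read 12.82 in WT replicate 3 against 12.75 to 12.77. The brighter Spata48 feature read 11.21 in KO replicate 2 against 10.74 to 10.82 in the other KO arrays, and its dimmer feature was also highest there, at 10.09. Spata2 read 7.57 in KO replicate 2 against 7.84 to 7.91.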

How the results depend on the processing

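The 18 falls kept their direction under all 23 alternatives, and all 18 stayed called except within batch 2 or batch 4 alone, where 16 did. Falls of the haploid class numbered 12 throughout, and the count of falls was 18 to 19 when single arrays were left out. The rises depended more on the setting: 10 to 12 genes were higher when single arrays were left out, 5 in batch 2 alone and 2 in batch 4 alone, fits in which a lone array is assumed to vary like the others, and all 11 kept their direction there. No called gene changed direction. Among genes that were not called, Spata48 turned to 0.47 with the mean of its features (limma adjusted p = 0.0019), and 8 others turned at values between −0.12 and 0.089. With the housekeeping centring Spata4 was at −0.12, Spag9 at −0.055, Spata2 at −0.027, Spata17 at −0.025 and Spag11b at −0.0082, and without B2m in it Spata4 was at −0.017. In batch 2 alone Spata13 was at 0.089, Spata17 at −0.037, Spag17 at −0.024 and Spata4 at −0.012, and in batch 4 alone Spata2 was at −0.087, Spata4 at −0.041, Spag9 at −0.018 and Spag11a at 0.0052. Spata4 was at −0.026 with batch as a fixed block and −0.016 without KO replicates 2 and 3, and Spag11a at 0.023 after a further quantile normalisation and 0.0035 with arrays centred on their median. When single arrays were left out Spata4 ranged from −0.021 to 0.030 and Spag11a from −0.065 to 0.060. The cause of these shifts was not tested. No paired analysis was possible because the replicate numbers only follow the order of deposition.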
